A study of Mus musculus with 8 samples.

Results

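The digestive enzymes described here are 9 hydrolases of the enterocyte brush border, of which 7 are peptidases and 2 are disaccharidases. The peptidases are Anpep, Dpp4, Ace, Enpep, Naaladl1, Mep1a and Mep1b, and the disaccharidases are Lct and Treh. Every probe set that the platform annotation assigns to 1 of these genes alone was taken, which gave 14 probe sets of the 34958 with a single listed gene. Dpp4 had 4 of them, Ace and Mep1a had 2 each, and the other genes had 1 each. All 14 passed the filter on low signal, and no array of any of them lay under the filter value of 5.20 on the log2 scale. All 9 genes were therefore among the 13119 that were tested, of 18194 genes with a probe set of their own.

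RNA came from the small intestine of C57BL/6 mice on the AIN-76 diet, and every mouse carried the Apc Min allele over a wild-type allele, which causes intestinal tumours, together with loxP sites on both copies of Spint1. Spint1 encodes HAI-1, an inhibitor of serine proteases at the epithelial surface. Control mice had the genotype Apc (Min/+)/Spint1 (flox/flox) and kept HAI-1. Deficient mice also carried Vil-Cre, in which the villin promoter drives Cre recombinase in the intestinal epithelium, so that only epithelial cells lose HAI-1. Non-tumour mucosa and tumours were taken from each genotype, with 2 arrays in each of the 4 groups, 8 in all. The labels give no age, leave unsaid whether a group's 2 arrays are from separate mice, and tie no tumour to a mucosa sample, so p-values measure the spread between these samples, which may be technical. In whole tissue, fewer enterocytes and less RNA per enterocyte cannot be told apart.

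The brush border is the layer of microvilli on the lumen side of absorptive enterocytes, and its membrane carries the enzymes that finish digestion. Aminopeptidases and dipeptidases there take residues off peptides, meprins cut inside longer chains, and disaccharidases split sugars before transport into the cell. These genes are switched on as cells leave the crypt and climb the villus, under transcription factors that include the HNF1, HNF4, CDX and GATA families.

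Because the 9 genes fell together in tumours, the sequence before the start of 4 of them is shown, for a gene with many matches to intestinal factor motifs, 1 with few and 2 with none. The sequences are the 250 bases upstream of the start in RefSeq's annotation of mouse GRCm38.p6, on the strand of the gene, and all 4 genes lie on the minus strand. Capitals mark matches on either strand to GTTAAT, the core bound by HNF1 factors, TTTAT, the core bound by CDX factors, and AGATAA, bound by GATA factors.
Lct, chr1:128328319-128328568: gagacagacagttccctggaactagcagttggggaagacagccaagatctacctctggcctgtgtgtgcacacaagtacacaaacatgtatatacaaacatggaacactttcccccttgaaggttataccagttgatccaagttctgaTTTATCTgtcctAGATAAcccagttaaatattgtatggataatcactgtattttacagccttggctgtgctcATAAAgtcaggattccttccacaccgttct
Dpp4, chr2:62412232-62412481: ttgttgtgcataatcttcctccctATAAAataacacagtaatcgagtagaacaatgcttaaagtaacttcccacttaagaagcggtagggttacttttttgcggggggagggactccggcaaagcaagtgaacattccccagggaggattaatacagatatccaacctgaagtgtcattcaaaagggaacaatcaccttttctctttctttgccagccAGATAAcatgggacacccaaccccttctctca
Mep1a, chr17:43502774-43503023: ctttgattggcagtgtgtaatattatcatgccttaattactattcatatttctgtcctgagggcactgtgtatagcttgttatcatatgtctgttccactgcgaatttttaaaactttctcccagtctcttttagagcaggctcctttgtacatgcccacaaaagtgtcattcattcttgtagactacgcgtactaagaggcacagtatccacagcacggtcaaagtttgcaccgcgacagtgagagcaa
Anpep, chr7:79848211-79848460: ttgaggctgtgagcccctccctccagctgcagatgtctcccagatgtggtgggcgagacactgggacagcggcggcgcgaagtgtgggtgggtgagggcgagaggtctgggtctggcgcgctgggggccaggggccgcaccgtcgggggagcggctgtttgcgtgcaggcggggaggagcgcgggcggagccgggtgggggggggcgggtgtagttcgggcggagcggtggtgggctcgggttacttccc
The Lct window held 2 CDX matches, starting at 102 and 30 bases before the start, and 2 GATA matches, starting at 101 and 90 bases before it, and the CDX and GATA matches at 102 and 101 bases overlap. The Dpp4 window held 1 CDX match at 226 bases and 1 GATA match at 32 bases before the start. The Mep1a and Anpep windows held none of the 3 motifs, and their G and C content was 41.6% and 72.8% against 42.8% for Lct and 43.6% for Dpp4. Over all 32851 windows of this length in the table the median content was 52.4%. Among the other genes with an entry, Enpep had 1 CDX match at 52 bases, the first of the 2 Ace starts had 1 at 31 bases, and the second Ace start and Treh had none. GTTAAT was found in no window of these genes and in 6.4% of all windows. TTTAT was found in 37.3% of all windows and AGATAA in 3281 of the 32851. A match is a string of letters and not a shown binding site.

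Across the arrays, Spint1 stood at 12.75 to 13.06 on the log2 scale in the 4 control arrays and at 11.76 to 12.46 in the 4 deficient ones, without overlap, although the fitted differences of -0.58 in mucosa and -1.10 in tumours were not called. The summed linear signal of 19 enterocyte markers was 378198 to 470512 in the mucosa arrays and 230119 to 321058 in the tumour arrays, without overlap. Fibroblast and smooth muscle markers differed the other way: the summed linear signal of 9 fibroblast markers was 2340 to 6159 in the mucosa arrays and 20964 to 31590 in the tumour arrays, and that of 7 smooth muscle markers was 927 to 2445 and 5898 to 13288. The sum of 5 T cell markers was 752 to 2590 in the mucosa arrays and 414 to 1084 in the tumour arrays, with overlap. Replicate 2 of the control tumours had a 3'/5' signal ratio of 25.9 for Gapdh, which can mark degraded RNA, against 0.803 to 1.77 on the other arrays. Its ratio for Actb was 2.32, against 1.15 to 1.52. Labelling spike-in transcripts split the arrays into 3 at 9.14 to 9.29 and 5 at 7.57 to 7.998 on the log2 scale. The 3 are replicate 2 of control mucosa, of deficient mucosa and of deficient tumours.

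All 9 enzymes were lower in tumours than in non-tumour mucosa. Averaged over both genotypes, 9 of 9 were called lower (limma, Benjamini-Hochberg adjusted p of 0.00141 to 0.00849), where 10.1% of the 13119 genes were called lower. The 9 were chosen with earlier results of these data known, so this count is a description and not a test of the class. The median log2 difference of the 9 was -2.41, and that of all tested genes was 0.20. Centring every array on its median moved the latter to -0.02 and the share of lower genes among all called from 28.3% to 47.0%, and left 9 of 9 called. For each of the 9, the 4 tumour arrays lay below the 4 mucosa arrays, which held for 9.90% of all genes. The exact permutation test of 4 arrays against 4 gave a two-sided p of 0.0286 for each of the 14 probe sets, the smallest that it allows. Complete separation of the arrays fixes this p, so the test adds nothing to their order. Of all genes 9.90% separated in this way with tumours lower and 23.4% with tumours higher. The sizes ran from 10.89-fold for Naaladl1 to 2.09-fold for Mep1b.

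**Figure D1:**
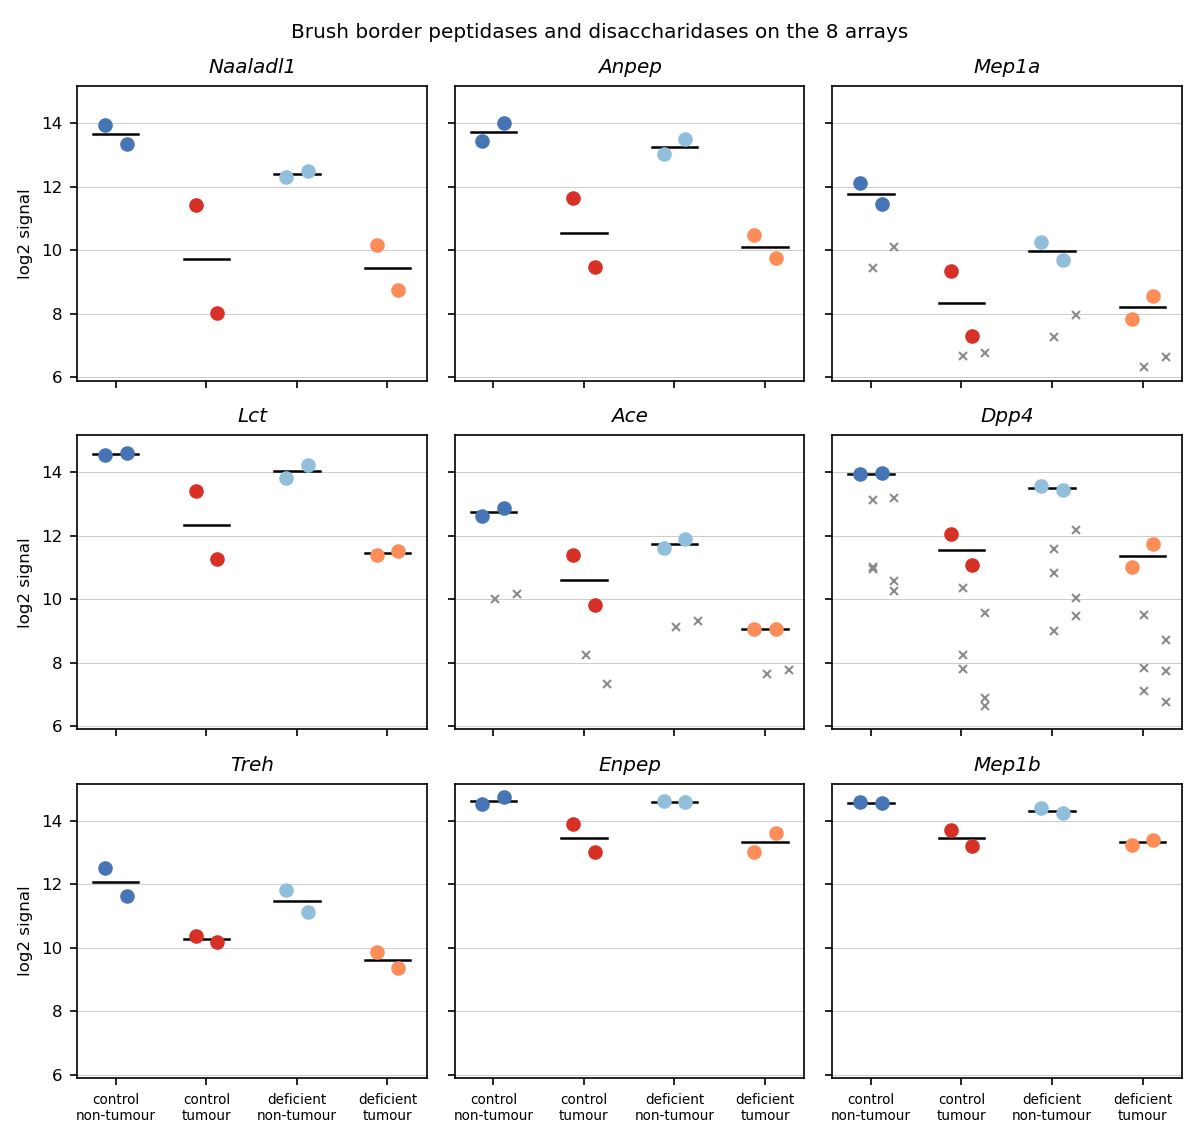
Log2 signal of each enzyme gene on the 8 arrays, by group. Coloured points are the arrays for the probe set kept for the gene, black lines their group means, and grey crosses the gene's other probe sets. In every panel the 4 tumour points lie below the 4 non-tumour points, and the 2 control tumours lie far apart for Naaladl1, Anpep, Lct and Mep1a.

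Among the peptidases that take single residues or pairs off the ends of peptides, Anpep is aminopeptidase N, which removes neutral amino acids from the amino end. Its log2 signal was 13.45 and 14.002 in control mucosa, 13.02 and 13.49 in deficient mucosa, 11.65 and 9.46 in control tumours, and 10.49 and 9.74 in deficient tumours. The tumour arrays were all low and the mucosa arrays of the 2 genotypes interleaved. Averaged over genotypes, Anpep fell by 3.16 ± 0.47 (SE), an 8.93-fold fall with an adjusted p of 0.00275 (limma). The differences were -3.17 in control and -3.14 in deficient mice, both called, and the control value was -2.08 or -4.27 with replicate 2 or replicate 1 of the control tumours left out.

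Dpp4, dipeptidyl peptidase 4, releases dipeptides that have proline or alanine in the second place and also inactivates incretin hormones. The kept probe set read 13.94 and 13.97 in control mucosa, 13.56 and 13.43 in deficient mucosa, 12.05 and 11.07 in control tumours, and 10.99 and 11.72 in deficient tumours. The 4 groups separated by tissue, and within the mucosa both deficient arrays were below both control arrays. Dpp4 fell by 2.27 ± 0.27 in tumours, with the smallest adjusted p of the 9 (0.00141, limma), and differed by -2.39 in control and -2.14 in deficient mice, both called.

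Ace, angiotensin-converting enzyme, is a dipeptidyl carboxypeptidase that is abundant in the small intestine as well as in vessels. Its kept probe set read 12.62 and 12.86 in control mucosa, 11.60 and 11.88 in deficient mucosa, 11.38 and 9.80 in control tumours, and 9.07 and 9.07 in deficient tumours. Deficient arrays were below control arrays within each tissue. The log2 difference in tumours was -2.41 ± 0.33, a 5.33-fold fall (adjusted p = 0.00221, limma), and it was called in control mice at -2.15 and in deficient mice at -2.67.

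Enpep is aminopeptidase A, which removes acidic residues and cuts angiotensin II. It read 14.52 and 14.75 in control mucosa, 14.63 and 14.58 in deficient mucosa, 13.90 and 13.02 in control tumours, and 13.04 and 13.61 in deficient tumours. The mucosa arrays of the 2 genotypes interleaved near the top of the scale, since the highest value of any probe set was 15.17 to 15.51 per array. It fell by 1.23 ± 0.25 in tumours (adjusted p = 0.00849, limma). Whether the scanner's upper range shrinks differences at this level was not tested.

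Naaladl1 is a peptidase of the brush border related to the glutamate carboxypeptidase Folh1. It read 13.94 and 13.36 in control mucosa, 12.30 and 12.50 in deficient mucosa, 11.41 and 8.01 in control tumours, and 10.16 and 8.74 in deficient tumours. The 2 control tumours were 3.40 apart on the log2 scale, the widest gap between replicates of any of the 9 genes. The averaged difference, -3.44 ± 0.70, was the largest of the 9 and carried the largest SE (adjusted p = 0.00841, limma). Without the control tumour array of high 3'/5' ratio the Naaladl1 difference was -2.59, still called at an adjusted p of 0.00667.

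Meprins are metalloproteases that cut proteins and peptides internally, built from alpha subunits, encoded by Mep1a, and beta subunits, encoded by Mep1b. Mep1a read 12.12 and 11.45 in control mucosa, 10.25 and 9.70 in deficient mucosa, 9.34 and 7.31 in control tumours, and 7.84 and 8.56 in deficient tumours. Both deficient mucosa arrays were more than 1 log2 unit below both control mucosa arrays. Mep1a fell by 2.62 ± 0.45 in tumours averaged over genotypes (adjusted p = 0.00460, limma). The difference was -3.46 in control mice, which was called, and -1.78 in deficient mice, which was not (adjusted p = 0.141).

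Mep1b read 14.61 and 14.55 in control mucosa, 14.41 and 14.24 in deficient mucosa, 13.71 and 13.20 in control tumours, and 13.26 and 13.39 in deficient tumours. Its replicates lay within 0.06 to 0.51 of each other, the closest of the 9 genes in the control tumours after Treh. The averaged difference of -1.06 ± 0.18 was the smallest of the 9 and was called (adjusted p = 0.00476, limma). The values of Mep1b, like those of Enpep, lay near the top of the scale.

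Of the disaccharidases, Lct encodes lactase-phlorizin hydrolase, which splits milk sugar and declines after weaning. It read 14.55 and 14.62 in control mucosa, 13.82 and 14.22 in deficient mucosa, 13.40 and 11.25 in control tumours, and 11.38 and 11.51 in deficient tumours. The first control tumour stood well above the other 3 tumour arrays. In control mucosa Lct lay near the top of the scale, at the level of Enpep and Mep1b, and whether its differences are shrunk there was not tested. Lct fell by 2.42 ± 0.43, or 5.34-fold (adjusted p = 0.00514, limma). The difference was called in control mice at -2.25 and missed the threshold in deficient mice at -2.58 (adjusted p = 0.0584).

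Treh encodes trehalase, which splits the fungal and insect sugar trehalose. It read 12.51 and 11.64 in control mucosa, 11.83 and 11.12 in deficient mucosa, 10.36 and 10.20 in control tumours, and 9.87 and 9.35 in deficient tumours. The control tumours differed by 0.16 for Treh, where the other 8 genes had gaps of 0.51 to 3.40 between these arrays. Treh fell by 1.83 ± 0.27, or 3.54-fold (adjusted p = 0.00286, limma), and was called in each genotype, at -1.79 in control and -1.86 in deficient mice.

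In control mice alone all 9 enzymes were called lower in tumours (adjusted p of 0.00509 to 0.0429, limma), against 7.64% of all genes. In deficient mice 4 of 9 were called lower, namely Anpep, Dpp4, Ace and Treh, against 1.75% of all genes. All 9 differences were negative in each genotype, with medians of -2.25 and -2.14, and in each genotype the 2 tumour arrays lay below the 2 mucosa arrays for all 9, which held for 23.6% of genes in control and 18.9% in deficient mice. The counts do not show that the fall differs between genotypes: the interaction was called for 0 of 9 and for 0% of all genes, with a smallest adjusted p of 0.639 among the 9 (limma). Its unadjusted p was under 0.05 for 0 of 9 and for 9.23% of all genes. It ran from -0.52 for Ace to 1.68 for Mep1a.

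The single-genotype counts depended on single arrays. Without replicate 2 of the control tumours, the array of high 3'/5' ratio, 4 of 9 were called in control mice (Anpep, Dpp4, Ace and Mep1a), beside 2058 of the 13119 genes in either direction, and without control mucosa replicate 1 or 2 it was 3 of 9, beside 1945 and 2278 genes. With all arrays 3777 genes were called. The control difference without replicate 2 or replicate 1 of the control tumours was -2.24 or -5.64 for Naaladl1, -2.44 or -4.47 for Mep1a and -1.18 or -3.33 for Lct. That control tumour array was below its replicate for all 9 genes, by 0.16 to 3.40, and was the lowest of the 8 arrays for 6 of them. In deficient mice 0 of 9 were called without any 1 of the control mucosa, deficient mucosa or deficient tumour arrays, and 0 of 9 when only the deficient arrays were fitted. These fits called 0 to 73 of all genes, against 551 with all arrays. Averaged over genotypes, 9 of 9 were called whichever array was left out. Among the 5 arrays of low spike-in signal all 9 differences were negative, from -4.23 to -1.06 in control and from -2.57 to -1.16 in deficient mice, and among the 3 of high signal they ran from -3.76 to -0.85 in deficient mice. Control tumours had no array of high spike-in signal. With the spike-in split as a term in the fit, 7 of 9 were called in control mice, beside 3299 genes. Enpep and Lct were lost there (adjusted p of 0.0920 and 0.0662, limma). In deficient mice this fit called 3 of 9, beside 406 genes, and Anpep was lost (adjusted p = 0.0657, limma). Averaged over genotypes it called 9 of 9, beside 4376 genes.

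**Figure D2:**
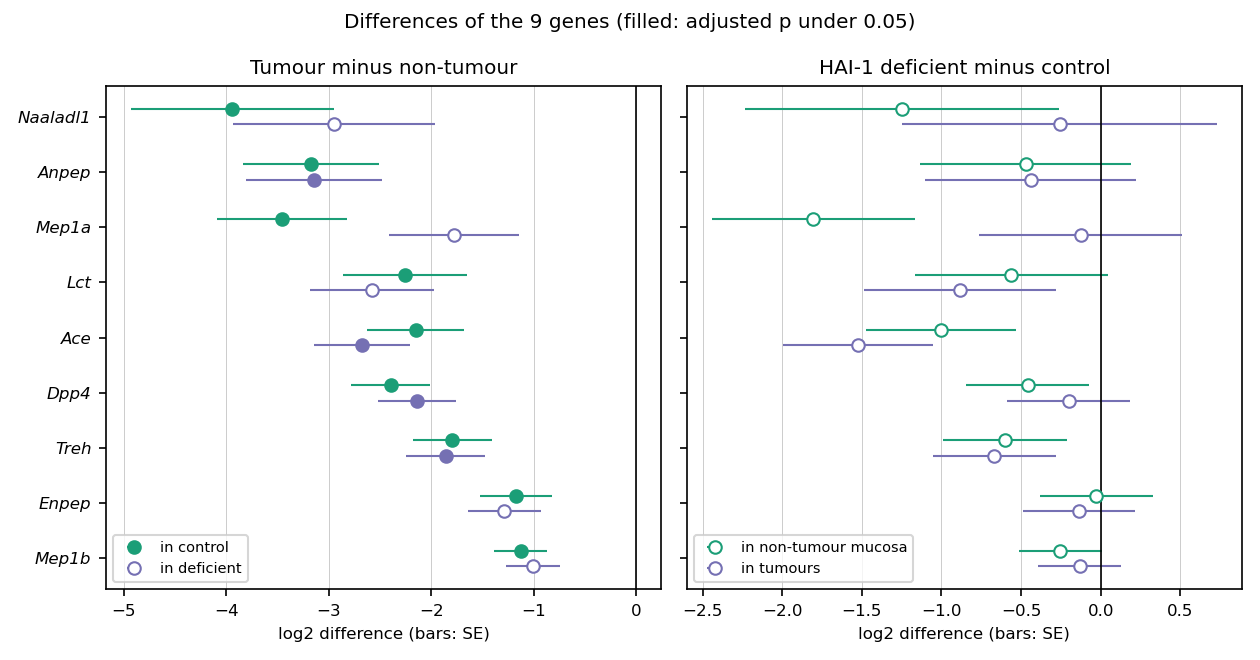
Log2 differences of the 9 enzymes with the SE of the fit, for tumour minus non-tumour tissue in each genotype (left) and for HAI-1 deficient minus control in each tissue (right). Filled points passed an adjusted p of 0.05. All points on the left lie at least 1 log2 unit below 0, while on the right none is filled and all lie below 0.

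The 5 probe sets not kept for their gene fell in tumours as well. In a fit to every probe set, 14 of 14 were called lower averaged over genotypes, where 9.80% of 23065 probe sets were. The Dpp4 probe sets 1459973_x_at, 1438279_at and 1441342_at had log2 differences of -3.002, -2.91 and -2.87, larger than the -2.27 of the kept 1416697_at. The second Ace probe set, 1451911_a_at, fell by 1.91 and the second Mep1a probe set, 1447252_s_at, fell by 2.10, less than the kept ones.

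The falls were also read against epithelial content, with 2 scalings added after the data were seen. When each array was shifted by the mean of the epithelial genes Epcam, Cdh1, Krt8, Krt18, Krt19 and Cldn7, 9 of 9 enzymes were still called lower averaged over genotypes, with differences from -3.70 for Naaladl1 to -1.32 for Mep1b. This scaling called 4276 genes, of which 50.5% were lower. Epcam itself read 14.42 to 14.63 in mucosa and 14.52 to 14.58 in tumours. Of the 6 epithelial genes, Krt18 at 1.39 and Krt19 at 0.56 were themselves called higher in tumours (adjusted p of 0.00125 and 0.0487, limma), and the other 4 were not called. These genes read 12.83 to 15.15, most of them near the top of the scale, where the highest value per array was 15.17 to 15.51. Whether differences in epithelial content are shrunk at this level was not tested, so that the scaling does not show that epithelial content was held equal. When each array was shifted by the mean of 15 genes of microvillus structure, which were lower in tumours themselves, the median of all genes moved to 1.16 and 7 of 9 were called, from -2.48 for Naaladl1 to -0.86 for Treh, where 10167 genes were called and 2.5% of these were lower. The exceptions were Enpep at -0.27 and Mep1b at -0.10, with adjusted p of 0.379 and 0.677 (limma). Relative to these structure genes, 7 enzymes were lower still in tumours, and for the other 2 no further difference was called. Some structure genes also read near the top of the scale, such as Slc9a3r1 at 14.68 to 14.95 in mucosa. Whether their falls are shrunk there was not tested, so the scaling does not show that brush border content was held equal.

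Other enzymes of the brush border divided. Of 15 listed hydrolases, 10 could be tested and 5 were called lower in tumours averaged over genotypes, with 0 called higher. They were Xpnpep2, an aminopeptidase for bonds before proline, at -2.70, Dpep1, a membrane dipeptidase, at -2.39, Asah2, neutral ceramidase, at -2.32, Mme, neprilysin, at -2.17, and Mgam, maltase-glucoamylase, at -1.82. The other 5 were not called. Alpi, intestinal alkaline phosphatase, differed by 0.18 ± 0.25, Enpp3, an ectonucleotide pyrophosphatase, by -0.69 ± 0.33, and Tmprss15, enteropeptidase, by 0.18 ± 0.61. The median of the 10 was -1.25 beside -2.41 for the 9 enzymes. The 9 and the lists were chosen with earlier results of these data known, so these medians do not rank the 9 against their class. The 5 called are peptidases, a glucosidase and a lipid hydrolase.

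Of 15 genes of microvillus structure, 10 were called lower, with a median of -0.94. Cobl, an actin nucleator, differed by -1.77, Pls1, an actin bundler of microvilli, by -1.63 and Anks4b, a scaffold of the links between microvillus tips, by -1.20. Of 19 tested enterocyte markers 11 were called lower, among them Khk, ketohexokinase, at -2.37, Slc15a1, the peptide transporter that takes up the products of these peptidases, at -1.85, and Slc5a1, the sodium-glucose transporter, at -1.35. Of 9 tested ileal markers 7 were called lower, among them Amn, a partner of cubilin, at -3.11, the guanylin receptor Gucy2c at -1.82 and the bile acid transporter subunit Slc51a at -1.89. Of 12 genes with higher expression in the proximal intestine 5 were called lower, such as Hsd17b6 at -2.34 and Slc2a2 at -2.04, and 3 higher, such as Onecut2 at 1.14.

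Transcription factors of the enterocyte were divided too. Of 14 tested, 7 were called lower and 0 higher, with a median of -0.43. Among those called, Maf differed by -1.93, Hnf4g by -1.89 and Creb3l3 by -1.003. Of the families whose motifs were searched, Cdx2 at -0.70 and Gata6 at -0.75 were called lower, while Cdx1 differed by -0.09 ± 0.26 and Gata4 by 0.14 ± 0.34, neither called. Hnf4a differed by -0.22 ± 0.21 and was not called.

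In tumours 25.7% of all genes were called higher, and the lists of other compartments differed in direction. Of 11 proliferation markers 11 were called higher, and of 9 stem cell markers 8 were, among them Cd44 at 2.55, Prom1 at 2.28 and Sox9 at 2.80. All 9 fibroblast markers rose, such as Col1a2 at 3.40, and all 7 of smooth muscle, such as Acta2 at 2.53. Of 8 goblet cell markers 3 were called higher, among them Spdef at 1.80, and 5 were not called. Of 5 tested T cell markers, 2 were called lower and 0 higher, Cd8a at -1.48 and Cd3g at -1.12. The part of these compartments in the falls of the enzymes was not tested beyond the scalings above.

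**Figure D3:**
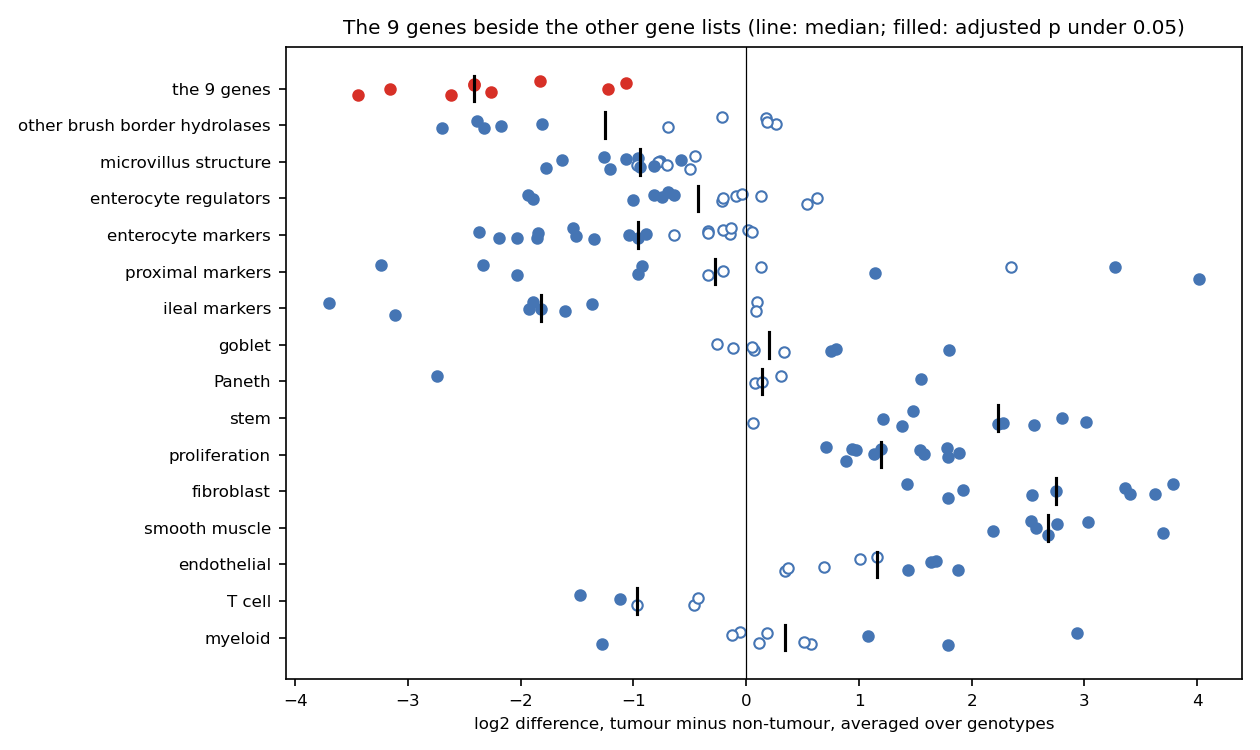
Log2 difference between tumours and non-tumour tissue, averaged over genotypes, for each tested gene of each list. Points are genes, filled where the adjusted p was under 0.05, and black lines are list medians. The 9 enzymes (top row, red) lie between -3.44 and -1.06, other brush border hydrolases lie on either side of 0, and fibroblast and smooth muscle genes lie to the right.

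Between deficient and control mice no difference was called for any of the 9 enzymes. In non-tumour mucosa 0 of 9 were called, where 1.05% of all genes were, with a smallest adjusted p of 0.205 (limma). An unadjusted p under 0.05 was found for 1 of 9 and for 17.49% of all genes. All 9 differences were negative, from -1.80 for Mep1a to -0.03 for Enpep, with a median of -0.56 against 0.11 for all genes. For 6 of 9 both deficient arrays were below both control arrays (Dpp4, Ace, Naaladl1, Mep1a, Mep1b and Lct), which held for 17.3% of genes. The median of 15 microvillus structure genes in this comparison was -0.19 and that of 19 enterocyte markers 0.03. The fibroblast markers had a median of 1.21, the smooth muscle markers one of 0.94 and the T cell markers one of -1.11, with none of them called. The endothelial markers had a median of 1.13, with 1 of 9 called higher. The part of these lists in the enzyme differences was not tested.

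Mep1a was the gene with the most negative difference in mucosa, at -1.80 ± 0.64 (unadjusted p = 0.0234, adjusted p = 0.205, limma). Its second probe set read 9.42 and 10.11 in control mucosa, 7.27 and 7.95 in deficient mucosa, 6.65 and 6.75 in control tumours, and 6.32 and 6.63 in deficient tumours. The deficient mucosa lay between control mucosa and the tumours on both Mep1a probe sets. For the second the difference was -2.15 ± 0.35 and the adjusted p over all probe sets was 0.0737, in a fit in which 0.0824% of probe sets were called. The interaction was 1.68 ± 0.90 for the kept and 1.92 ± 0.50 for the second probe set, with adjusted p of 0.639 and 0.440. Within the arrays of low spike-in signal the mucosa difference of the kept probe set was -1.86 and within those of high signal -1.74. Over all 9, the mucosa differences were negative within either set of arrays, except Enpep at 0.11 within the set of low spike-in signal. Each of these differences rests on a single array per genotype.

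The probe sets of Dpp4 did not agree on the size of the effect of HAI-1 loss in mucosa. The kept probe set gave -0.46 ± 0.38, 1459973_x_at gave -1.27 ± 0.41, 1438279_at gave -0.16 ± 0.55 and 1441342_at gave -1.55 ± 0.39, all negative and none called. On 1441342_at the control mucosa read 10.996 and 10.57 and the deficient mucosa 8.99 and 9.47, without overlap. On 1438279_at they read 10.94 and 10.25 against 10.82 and 10.05, with overlap. For Ace the probe sets gave -1.002 and -0.87, each without overlap. A result on Dpp4 in the mucosa therefore depends on the probe set.

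In tumours HAI-1 loss called 0 of 9 enzymes and 0% of all genes, with 802 genes (6.11%) at an unadjusted p under 0.05 and 0 called with a mean-variance trend. All 9 kept differences were negative, with a median of -0.26 against -0.01 for all genes. Both deficient tumours were below both control tumours for 2 of 9, Ace and Treh, where 19.4% of genes met this. Ace differed by -1.52 ± 0.47 (unadjusted p = 0.0131, adjusted p = 0.779, limma), but its second probe set gave -0.06 ± 0.34 and read 8.23 and 7.31 in control against 7.65 and 7.77 in deficient tumours, which overlap. The sign of this contrast changed with single tumour arrays. Leaving out the first control tumour array keeps only the array of high 3'/5' ratio in that group. Anpep, Dpp4, Enpep, Naaladl1, Mep1a, Mep1b and Lct then turned positive, up to 1.44 for Naaladl1. With the array of high 3'/5' ratio left out instead, Ace differed by -2.31, Naaladl1 by -1.96 and Anpep by -1.54. Mep1a then differed by -1.14, Dpp4 by -0.69 and Enpep by -0.58. Without the first deficient tumour array Dpp4, Enpep and Mep1a were positive, at 0.16, 0.15 and 0.23, and without the second Naaladl1 was, at 0.45. Within the arrays of low spike-in signal 8 of the 9 were negative, and Naaladl1 was 0.45.

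Averaged over both tissues, a contrast added after the data were seen, HAI-1 loss called 0 of 9 enzymes and 0% of all genes, with 2136 genes and 1 of the 9 at an unadjusted p under 0.05. That gene was Ace, at -1.26 ± 0.33 (adjusted p = 0.163, limma). The mean-variance trend called 116 genes in this contrast and none of the 9. The group means stood in 1 order for all 9 enzymes, from control mucosa through deficient mucosa and control tumours to deficient tumours, an order that 8.06% of all genes had. This holds for the kept probe sets and all arrays. On the Dpp4 probe set 1438279_at the deficient tumours, at 7.78, were above the control tumours, at 7.42. The last step also turned for 7 of 9 once replicate 1 of the control tumours was left out. That fit keeps only the array of high 3'/5' ratio among the control tumours. The neighbours at either end of this order, the genotypes within a tissue, were not called different for any of the 9, and the middle pair was not tested.

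Among other brush border hydrolases, Xpnpep2 gave the smallest p for HAI-1 loss in mucosa, at -1.62 ± 0.46 (adjusted p = 0.131, limma). Asah2 differed by -1.01 ± 0.45. Akp3, an alkaline phosphatase of the duodenum, differed the other way, by 2.55 ± 1.13 (adjusted p = 0.299). It read 4.86 and 5.37 in control mucosa and 3.84 and 5.37 in control tumours, against 9.34 and 6.00 in deficient mucosa and 9.82 and 7.61 in deficient tumours. All 4 deficient arrays were thus above all 4 control arrays for Akp3, which held for 1.40% of all genes, with 2 of the control arrays under the filter value. Akp3 passed the filter on its mean only through the deficient arrays, so its separation is a description and not a test. Of the regulators, Gata5 at -0.68, Maf at -0.69 and Hnf4g at -0.57 had the smallest p values in mucosa, none called.

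The enzymes did not share 1 profile. Likeness was measured as the root mean square difference between 2 genes' log2 signals over the 8 arrays, each gene centred on its own mean, and it is given as a description. Enpep and Mep1b were the closest pair of the 9 at 0.20, followed by Ace and Lct at 0.32 and by Dpp4 and Lct at 0.44, and the farthest were Naaladl1 and Mep1b at 1.497. Another of the 9 was the nearest of all 13118 other genes only for Enpep.

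The 2 genes nearest to each enzyme were of various kinds. Nearest to Lct were Asah2 at 0.28 and Slc16a10, an aromatic amino acid transporter, at 0.29. Nearest to Mep1a were Pdzk1, a scaffold of apical transporters, at 0.28 and Cyp2c55, a cytochrome P450, at 0.39. Nearest to Dpp4 were Prkg2, a cGMP-dependent kinase of the brush border, at 0.17 and Abcg5, a sterol exporter, at 0.22. Anpep had Slc7a8, an amino acid transporter, at 0.42 and Amn at 0.46, and Naaladl1 had Prss30, a serine protease, at 0.51 and Slc5a8, a monocarboxylate transporter, at 0.51. The nearest to Ace were Oas1e at 0.24 and Lct. Enpep had Spink1, a trypsin inhibitor, second at 0.21, Mep1b had Ilvbl at 0.11 and Lysmd4 at 0.12, and Treh had Gnpda1, glucosamine-6-phosphate deaminase, at 0.25 and Btnl2 at 0.26. The median over all genes was 0.77 for Mep1b and 2.13 for Naaladl1, so small values come more easily to genes that vary little.

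**Figure D4:**
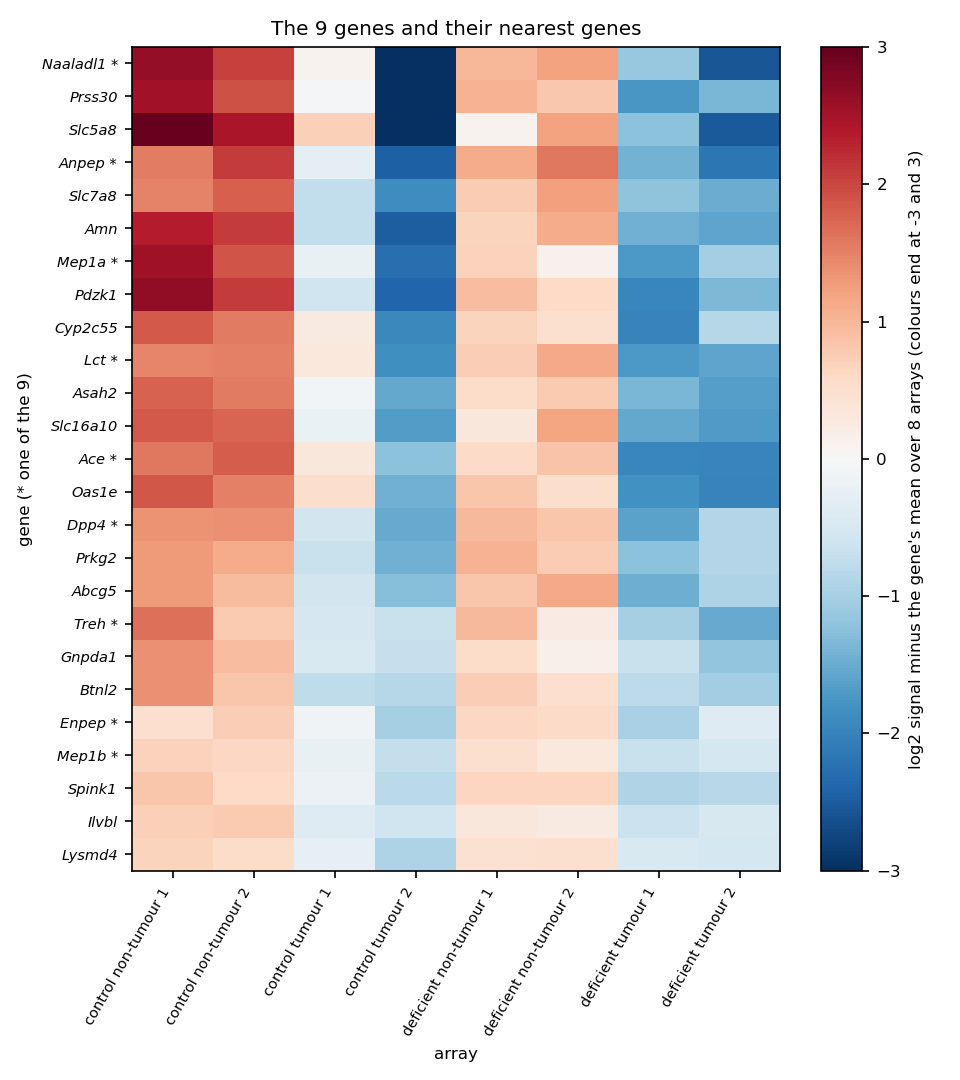
Log2 signal of the 9 enzymes (starred) and of the 2 genes nearest to each, as the difference from the gene's own mean over the 8 arrays. Rows are genes, columns are arrays, red is above and blue below the mean. The mucosa arrays are red or pale and the tumour arrays blue or pale, with the first control tumour above the mean for some genes, such as Slc5a8 and Oas1e. The second control tumour is the deepest blue for Naaladl1, Anpep and Mep1a.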

How the data were processed

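RNA of 8 samples was hybridised to Affymetrix mouse arrays, after biotin labelling of 6 ug of total RNA. The authors deposited log2 values per probe set, and per the submitters' processing notes MAS5 and RMA were used, with no versions or roles given. The values are of the MAS5 kind: the linear mean with 2% trimmed at either end was 500.003 to 500.004 on each array, and 313 to 762 probe sets stood at 0. They were used as deposited. Depth does not apply to arrays, and their number limits the precision.

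Probe sets averaging under the 40th percentile (5.20 on the log2 scale, 36.8 linear) were removed, and each gene was represented by its brightest single-gene probe set. Groups followed the labels. The software was limma 3.58.1 (R 4.3.3), with a mean for each group, all arrays in the fit, 4 residual and 3.52 prior degrees of freedom, two-sided tests and Benjamini-Hochberg adjustment over 13119 genes for each of 7 contrasts. Called means an adjusted p below 0.05. The fit was tested on simulated data. Alternatives covered the scaling, the filter, the choice of probe set, the variance trend, spike-in and replicate terms and each array left out. Differences are on the log2 scale with the SE of the fit.

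Gene lists, 16 beside the 9 enzymes, and the enzymes themselves were chosen with earlier results of these data known. Named were the enzymes, the 3 genes of smallest p per list in the averaged tissue contrast and, for hydrolases and regulators, in HAI-1 loss in mucosa, and the 2 genes nearest to each enzyme. Alpi, Enpp3, Tmprss15, Mgam, Cdx1, Cdx2, Gata4, Gata6 and Hnf4a were named after their values were seen, and so were Epcam and the other epithelial genes. Lists not described in the results gave, in the averaged tissue contrast, 4 of 9 endothelial, 3 of 10 myeloid, 1 of 5 Paneth cell and 1 of 3 pancreatic genes called higher, and 0, 1, 1 and 0 called lower. Promoter sequences are from RefSeq, with an entry for 7 of the 9 genes. Protein sequences were not used here. Figures were drawn with matplotlib.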

Additional observations from a re-analysis of the deposited data

How the results depend on the processing

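All 9 enzymes stayed lower in tumours, with negative differences, in every alternative and contrast of tissue, and 9 of 9 were called averaged over genotypes in every alternative but the scaling on microvillus structure genes, which called 7 of 9 and 10167 genes. HAI-1 loss and the interaction called 0 of 9 enzymes in every alternative, and 0 genes in tumours and in the interaction. Both scalings on epithelial or structure genes and the contrast averaged over tissues were chosen after seeing the data. The cause of the changes below was not tested.

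In control mice 3777 genes and 9 enzymes were called in tumours against mucosa. With no filter 6 of the 9 were called, with only the groups compared 7 (3428 genes), and with the spike-in term 7 (3299 genes). Each probe set on its own gave 5215 and 8. No filter gave 2464 genes, the structure scaling 8474 genes and 4 enzymes, and leaving out 1 array 1945 to 3767 genes and 3 to 9 enzymes. In deficient mice 551 genes and 4 enzymes were called. No filter and fitting only the groups compared each gave 0 genes and 0 enzymes, the 60th percentile filter 959 and 7, the mean-variance trend 972 and 7, and each probe set on its own 158 and 0. Raising low values gave 1000 genes and 5 enzymes, and the structure scaling 6914 and 5. Median centring gave 520 and 7, the mean of probe sets 392 and 2, and the spike-in term 406 and 3. Leaving out 1 array gave 0 to 346 genes and 0 to 5 enzymes.

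HAI-1 loss in mucosa called 138 genes. Quantile normalization gave 47, median centring 75, no filter 0, the 60th percentile filter 331, raised low values 279, the mean of probe sets 86, each probe set on its own 19, the trend 370, only the groups compared 46, the structure scaling 280 and the epithelial scaling 22, and leaving out 1 array 0 to 171. Averaged over tissues it called 0 genes, against 31 with the 60th percentile filter, 33 with raised low values, 1 with the mean of probe sets, 1 with each probe set on its own, 116 with the trend, 30 with the structure scaling and 0 to 221 with 1 array left out.

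The replicate numbers in the labels are not stated to pair samples, and the correlations of same-numbered arrays' deviations ran from -0.131 to 0.221. With a replicate block, 341 genes and 2 enzymes were called for tumours in deficient mice, and 3618 genes and 8 enzymes in control mice. For HAI-1 loss this block gave 84 genes in mucosa and 1 gene averaged over tissues.

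Among the differences recomputed, which include the interaction for Mep1a alone, signs turned for effects of HAI-1 loss that were not called. With the structure scaling Enpep turned to 0.18 in mucosa and 0.047 averaged over tissues, and with the spike-in term Naaladl1 turned to 0.043 in tumours. With 1 array left out, the effect in tumours ran from -1.54 to 0.65 for Anpep, -0.69 to 0.29 for Dpp4, -0.58 to 0.30 for Enpep, -1.96 to 1.44 for Naaladl1, -1.14 to 0.89 for Mep1a, -0.39 to 0.12 for Mep1b and -1.96 to 0.19 for Lct. In mucosa Enpep ran from -0.14 to 0.088, and averaged over tissues Anpep ran from -1.004 to 0.092, Enpep from -0.30 to 0.14 and Naaladl1 from -1.60 to 0.10. Detection calls were not used here, which limits what can be said of dim values.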
